A study of Homo sapiens with 6 samples.

Results

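The 44 genes described here encode proteins that drive cells from G2 through mitosis, and all 44 were found among the 36459 gene symbols of the count table. They were taken by symbol from a list of mitotic regulators, kinetochore, spindle and cytokinesis genes. RNA was measured by bulk RNA-seq of poly-A RNA in PC9, an established human non-small cell lung cancer line, as parental cells and as PSPC9, persister cells that survived 15 µM erlotinib for 6 days. Erlotinib blocks the kinase of EGFR, on whose signal PC9 cells depend. Both groups share the PC9 background and its culture medium, and the parental cells are labelled as such with no drug named. There were 3 libraries per group, and the PSPC9 libraries were made from 9 separately grown dishes that had been pooled, whereas the PC9 libraries came from 3 separate cultures. Everything here therefore describes 1 cell line at 1 time under drug, and pooling evens out differences between dishes in the PSPC9 group only. The comparison asks whether, and how far, the mitotic genes differed from those of parental cells on day 6.

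Entry into mitosis is set by CDK1 bound to cyclin A or cyclin B, which is held back by inhibitory phosphates until the CDC25 phosphatases remove them. Polo and Aurora kinases, kinesins and kinetochore proteins then build the spindle and attach the chromosomes, the spindle assembly checkpoint delays anaphase until attachment is complete, and the anaphase-promoting complex ends mitosis by marking cyclin B and securin for destruction. Most of these genes are transcribed together late in the cell cycle, driven by FOXM1 and B-MYB (MYBL2) with the MuvB complex and held down in resting cells by the DREAM complex, which carries p130 (RBL2) in the place of MYBL2. Blocking EGFR in cells that depend on it is known to hold many of them in G1.

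The total gene count was between 29476725 and 34893782 per library, and every library differed from the others of its group by more than sampling noise. For 3 targets of ERK signalling, which were picked after their values had been seen and so carry no test here, the log2 fold changes (PSPC9 over PC9) were -3.68 for DUSP6, -2.68 for SPRY4 and -1.05 for SPRY2. The labelled cell type was checked on its markers. The summed level of 6 epithelial markers was 7516 to 8048 CPM (counts scaled to a library of equal size) in PC9, led by KRT8, and 5934 to 6296 CPM in PSPC9, led by KRT7. Of these 6, CDH1 and KRT7 were higher in PSPC9 and EPCAM, KRT8, KRT18 and KRT19 lower, with log2 fold changes from 0.60 for CDH1 to -1.03 for KRT19. Of 6 fibroblast markers, COL3A1 was at 0 in all libraries, COL1A2, DCN and LUM stayed under 1 CPM, and the sum, nearly all COL1A1, was 10.4 to 11.01 CPM in PC9 and 27.4 to 30.8 CPM in PSPC9. Of the leukocyte markers, CD3E was at 0, PTPRC, CD14 and LYZ stayed under 1 CPM, and CD68 had a mean of 74.8 CPM in PC9 and 21.1 CPM in PSPC9. The sum of 4 endothelial markers was 8.19 to 8.88 CPM in PC9 and 3.60 to 4.03 CPM in PSPC9, with VWF and KDR under 1 CPM. The part of these marker levels in the values below was not tested.

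The mitotic genes were not lower as a group in the persister cells. In PSPC9, 23 of the 44 were higher, 4 were lower and 17 did not pass the limit, which was an adjusted p under 0.01 (quasi-likelihood test of edgeR, adjusted by Benjamini-Hochberg over all genes tested). The rises were led by the transcription factors MYBL2 and FOXM1 and included cyclin A2, cyclin B1, PLK1, AURKA and the proliferation marker MKI67. The 4 genes that fell were CDC25C, NUF2, KIF2C and CKS1B. All 5 spindle assembly checkpoint genes stayed inside the limit.

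These counts were read against all 14626 genes tested. The 27 genes that changed in either direction were 61.4% of the 44, which is close to the 56.8% of all genes that changed. The 23 that rose were 52.3% of the 44, beside 28.7% of all genes, and the 4 that fell were 9.09%, beside 28.1% of all genes. Changes were small: MYBL2 alone changed by more than 2-fold past the limit, beside 11.6% of all genes. The 3 PSPC9 libraries lay wholly above or wholly below the 3 PC9 libraries for 31 of the 44, as they did for 71.3% of all genes. The median log2 fold change of the 44 was 0.17, with a range from -0.47 to 1.35, and the median of all genes was -0.0061. These shares and medians are descriptions, since the genes are no replicates of each other. In bulk RNA, a different share of cells in G2 and mitosis and a different amount of message per such cell cannot be told apart.

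**Figure D1:**
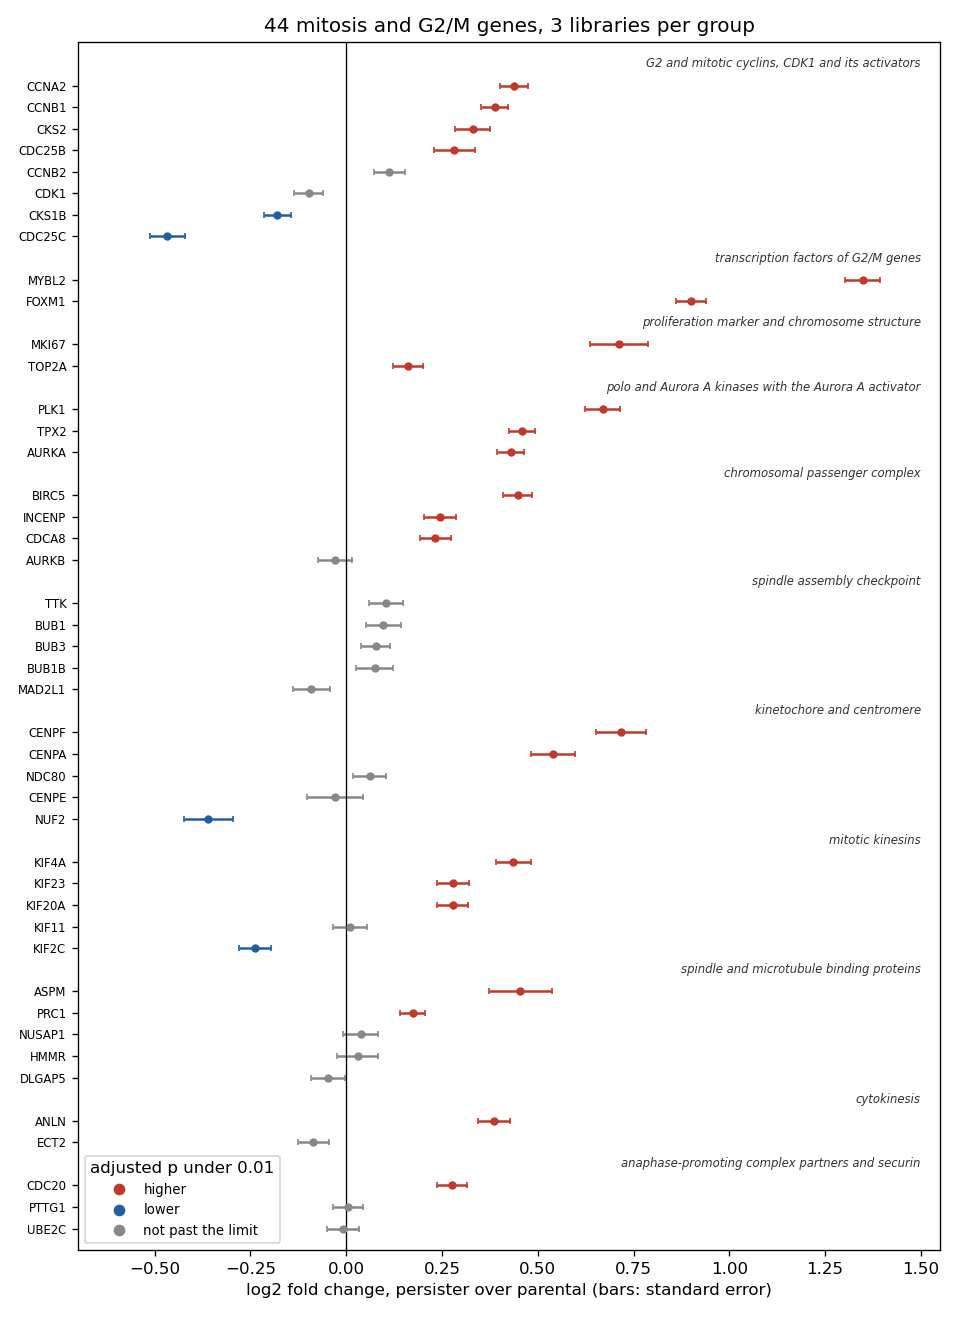
The log2 fold change of each of the 44 genes (x axis, PSPC9 over PC9, bars 1 standard error), grouped by role, with red for higher and blue for lower past the limit and grey for genes that did not pass it. MYBL2 lies farthest to the right at 1.35 and CDC25C farthest to the left at -0.47, and the 5 checkpoint genes lie between -0.091 and 0.10.

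The median log2 CPM of the 44 genes overlapped between groups, from 6.808 to 6.846 in PC9 and from 6.813 to 6.931 in PSPC9. The summed message of the 44 genes, in which genes with many counts weigh most, was higher in PSPC9. Of all gene counts it took 0.581%, 0.562% and 0.566% in the PC9 replicates and 0.694%, 0.683% and 0.677% in the PSPC9 replicates. Every PSPC9 library was above every PC9 library. The mean was 0.5698% ± 0.01003 (SD, n = 3) in PC9 and 0.685% ± 0.00900 (SD, n = 3) in PSPC9, a ratio of 1.201, and the ratio was 1.25 when the library sizes were scaled by TMM, the normalization behind every CPM given here. Compared per transcript length in PC9, the strongest messages were those of PTTG1 (securin) at 352 ± 1.38 (SD, n = 3) TPM (counts per annotated transcript length, scaled to equal totals), CKS2 at 299 ± 7.02 (SD, n = 3) TPM and CKS1B at 297 ± 3.27 (SD, n = 3) TPM, and the weakest was that of the kinesin CENPE at 8.48 ± 0.543 (SD, n = 3) TPM. Across the 44 genes the log2 fold change had a Pearson r of 0.0019 with the level per length (n = 44) and of 0.24 with transcript length (n = 43). The points of these correlations share the same 6 libraries, and they are descriptions only.

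Many of the promoters carry the 2 sequence elements through which the G2/M program is known to be read, the cell cycle homology region (CHR, searched as TTTGAA) and the CCAAT box, which binds NF-Y. Sequences were taken from RefSeq (GRCh38.p14), which gave a promoter for 37 of the 44. No entry was found for UBE2C, BUB3, AURKA, TTK, FOXM1, BIRC5 and TPX2. Both strands of the 250 bases before the start were searched, TTCAAA and ATTGG being the reverse letters. The CHR letters stood in 22 of 37 (59.5%) and in 13.3% of all 35116 windows of this length, and CCAAT in 30 of 37 (81.1%) and in 32.01% of all windows. The promoters of 3 genes are printed because they show the same elements before a gene that rose (PLK1), one that did not pass the limit (CCNB2) and one that fell (CDC25C), with capitals for the CHR and for CCAAT or its reverse ATTGG.
PLK1, chr16:23678639-23678888, plus strand: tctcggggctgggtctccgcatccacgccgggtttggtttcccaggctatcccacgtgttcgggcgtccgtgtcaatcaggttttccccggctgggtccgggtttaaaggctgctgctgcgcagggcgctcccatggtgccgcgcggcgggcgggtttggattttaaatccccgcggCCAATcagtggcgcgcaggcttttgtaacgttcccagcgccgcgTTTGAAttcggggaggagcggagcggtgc
CCNB2, chr15:59104896-59105145, plus strand: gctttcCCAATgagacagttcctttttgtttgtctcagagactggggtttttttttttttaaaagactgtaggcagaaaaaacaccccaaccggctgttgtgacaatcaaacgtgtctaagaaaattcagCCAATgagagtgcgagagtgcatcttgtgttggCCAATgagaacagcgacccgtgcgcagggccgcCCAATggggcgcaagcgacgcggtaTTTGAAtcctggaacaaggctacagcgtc
CDC25C, chr5:138331805-138332054, minus strand: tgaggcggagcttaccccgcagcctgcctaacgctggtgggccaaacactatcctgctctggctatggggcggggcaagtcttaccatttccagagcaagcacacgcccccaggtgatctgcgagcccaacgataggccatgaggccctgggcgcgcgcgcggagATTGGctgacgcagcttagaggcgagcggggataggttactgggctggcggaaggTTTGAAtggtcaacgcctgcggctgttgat

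The CHR began 29 bases before the start in PLK1 and CCNB2 and 30 bases before it in CDC25C, counted from its first base. The nearest CCAAT box began 73 bases before the start in PLK1, 54 in CCNB2, which has 4 in all, and 85 in CDC25C, where it is on the other strand. The elements do not overlap in these windows. Among promoters of genes that rose, 13 of 19 held the CHR and 17 of 19 CCAAT. Among those of the genes that fell it was 2 of 4 for each, and among the rest 7 of 14 held the CHR and 11 of 14 CCAAT. Neither element stood before MYBL2, which had the largest rise. The same held for NUF2 and KIF2C, which fell, and for CENPE and NDC80, which did not pass. A match describes the letters only.

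MYBL2 and FOXM1 are the 2 transcription factors of the group and had the 2 largest rises. MYBL2 (ENSG00000101057, chromosome 20, 43667019 to 43716495) had 134, 144 and 131 CPM in PC9 replicates 1, 2 and 3 and 335, 359 and 349 CPM in the PSPC9 replicates. FOXM1 (ENSG00000111206, chromosome 12, 2857680 to 2877174) had 203, 218 and 209 CPM in PC9 and 379, 399.7 and 395 CPM in PSPC9. For both genes all PSPC9 libraries were far above all PC9 libraries. The log2 fold change of MYBL2 was 1.35 (standard error 0.0456, edgeR adjusted p = 1.26e-09), a 2.55-fold rise, and that of FOXM1 was 0.90 (standard error 0.0392, edgeR adjusted p = 8.94e-09), a 1.86-fold rise.

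Of the 8 genes for cyclins, CDK1 and its activators, 4 rose, 2 fell and 2 did not pass. Cyclin A2, which works with CDK2 and CDK1 in S phase and G2, had 137, 131 and 132 CPM in PC9 and 179.6, 184 and 179 CPM in PSPC9 (CCNA2, ENSG00000145386, chromosome 4, 121816444 to 121823883). Cyclin B1, the main mitotic partner of CDK1, had 143, 138 and 143 CPM in PC9 and 182, 185 and 188 CPM in PSPC9 (CCNB1, ENSG00000134057, chromosome 5, 69167135 to 69178245). Neither gene overlapped between the groups, and the edgeR log2 fold changes were 0.44 (adjusted p = 1.25e-06) for CCNA2 and 0.39 (adjusted p = 3.21e-06) for CCNB1. CCNB2, a second B-type cyclin, had 87.4, 84.8 and 87.3 CPM in PC9 and 94.5, 96.3 and 89.8 CPM in PSPC9. Its libraries were a little higher in PSPC9 without overlap, but its log2 fold change of 0.11 missed the limit (edgeR adjusted p = 0.0305).

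CDK1 itself, the kinase that drives entry into mitosis, did not rise with its cyclins. It had 158, 149.8 and 157 CPM in PC9 and 149, 145 and 142 CPM in PSPC9 (ENSG00000170312, chromosome 10, 60778331 to 60794852), so that all PSPC9 libraries were slightly below all PC9 libraries. The log2 fold change of -0.098 did not pass (edgeR adjusted p = 0.0422), but it passed as a fall of -0.14 with upper-quartile scaling (adjusted p = 0.00781) and of -0.15 with library size only (adjusted p = 0.00529). Among the 44, the phosphatases that activate CDK1 went opposite ways. Their relative CDC25A, which is not among the 44, rose by 0.25 on the log2 scale (edgeR adjusted p = 0.00168). CDC25C (ENSG00000158402, chromosome 5, 138285269 to 138338355) had the largest fall of the 44, from 38.9, 41.1 and 38.9 CPM in PC9 to 28.4, 28.6 and 28.99 CPM in PSPC9. CDC25B, which starts CDK1 activation in late G2, had 70.3, 79.8 and 72.5 CPM in PC9 and 86.2, 90.2 and 94.3 CPM in PSPC9. Neither overlapped between the groups, and the edgeR log2 fold changes were -0.47 (standard error 0.0463, adjusted p = 5.54e-06) for CDC25C and 0.28 (adjusted p = 8.28e-04) for CDC25B.

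The CKS proteins are small subunits that bind CDKs, and their 2 genes also split. CKS2 had 98.6, 92.9 and 98.3 CPM in PC9 and 116, 121 and 127 CPM in PSPC9, with every PSPC9 library higher. CKS1B, which also serves the ubiquitin ligase that removes the CDK inhibitor p27, had 123, 121 and 123 CPM in PC9 and 107, 109 and 109 CPM in PSPC9, with every PSPC9 library lower. The edgeR log2 fold changes were 0.33 (adjusted p = 7.32e-05) for CKS2 and -0.18 (adjusted p = 8.62e-04) for CKS1B. Reads shared with near-identical copies were divided by the authors' counting, which makes the levels of CKS1B, CKS2 and PTTG1 less certain.

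**Figure D2:**
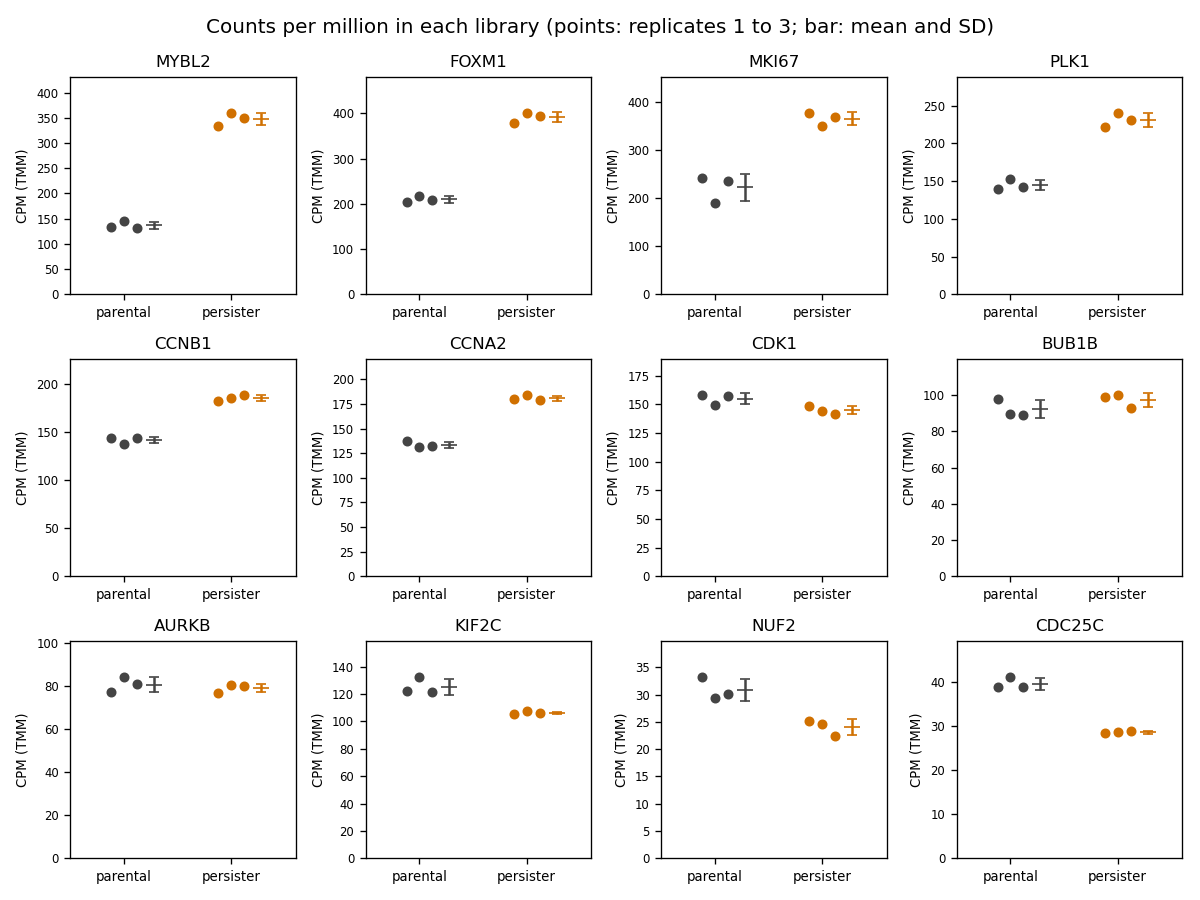
CPM in each of the 6 libraries (y axis from 0, TMM-scaled) for 12 of the 44 genes, with points for replicates 1 to 3 and a bar for the mean with its SD. MYBL2, FOXM1, MKI67, PLK1, CCNB1 and CCNA2 lie higher in every persister library, KIF2C, NUF2 and CDC25C lie lower in every persister library, CDK1 lies slightly lower, and AURKB and BUB1B overlap.

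MKI67, the antigen used to mark cycling cells, and TOP2A, the topoisomerase that untangles sister chromosomes, both rose. MKI67 (ENSG00000148773, chromosome 10, 128096659 to 128126423) had 242, 191 and 236 CPM in PC9 replicates 1, 2 and 3 and 377, 351 and 369 CPM in the PSPC9 replicates. PC9 replicate 2 was the lowest of all, and the PSPC9 libraries were all well above the 3 PC9 libraries. The edgeR log2 fold change of MKI67 was 0.71 (standard error 0.0761, adjusted p = 9.79e-06), and it was 0.61 without PC9 replicate 2. TOP2A had the most counts of the 44, 469.7, 434 and 451 CPM in PC9 and 522, 501 and 491 CPM in PSPC9. Its groups did not overlap, but its small rise of 0.16 (edgeR adjusted p = 0.00423) was the one call among the 27 that was lost in some alternative at the same limit. The adjusted p of TOP2A was 0.0251 with upper-quartile scaling and 0.0322 with library size only, and it was 0.0115 without PC9 replicate 2, 0.0215 without PC9 replicate 3, 0.0181 without PSPC9 replicate 1 and 0.0141 without PSPC9 replicate 2.

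PLK1, AURKA and TPX2 act together on centrosomes and spindle poles, and all 3 rose. PLK1, the polo kinase that promotes mitotic entry (ENSG00000166851, chromosome 16, 23677656 to 23690367), had 139.5, 153 and 143 CPM in PC9 and 221, 239.9 and 230.4 CPM in PSPC9. AURKA, the Aurora kinase of the spindle poles, had 74.0, 74.8 and 74.7 CPM in PC9 and 100.5, 101 and 98.9 CPM in PSPC9. TPX2, which binds and activates AURKA, had 252, 249 and 239.7 CPM in PC9 and 335, 343 and 339 CPM in PSPC9. In each case all persister libraries were the higher ones. The edgeR log2 fold changes were 0.67 (adjusted p = 2.89e-07) for PLK1, 0.43 (adjusted p = 1.54e-06) for AURKA and 0.46 (adjusted p = 6.33e-07) for TPX2.

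The chromosomal passenger complex corrects faulty attachments and consists of the kinase AURKB with INCENP, survivin (BIRC5) and borealin (CDCA8). Its 3 scaffold and targeting subunits rose, and its kinase did not pass the limit. BIRC5 had 94.5, 97.8 and 101 CPM in PC9 and 134, 132 and 134 CPM in PSPC9, INCENP 94.9, 97.7 and 91.6 and 108, 115 and 114 CPM, and CDCA8 77.6, 73.2 and 72.8 and 86.9, 88.8 and 86.9 CPM. None of these overlapped, with edgeR log2 fold changes of 0.45 (adjusted p = 1.94e-06), 0.24 (adjusted p = 3.82e-04) and 0.23 (adjusted p = 4.32e-04). AURKB had 77.2, 84.1 and 80.8 CPM in PC9 and 76.8, 80.5 and 79.9 CPM in PSPC9. The AURKB libraries of the 2 groups overlapped. Its log2 fold change of -0.029 did not pass (edgeR adjusted p = 0.582) and changed sign, to 0.0016, without PC9 replicate 2.

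None of the 5 spindle assembly checkpoint genes passed the limit. The strongest per transcript length in PC9, at 93.0 ± 5.75 (SD, n = 3) TPM, was BUB3, a WD-repeat protein that brings BUB1 to kinetochores. Its counts were 96.4, 94.5 and 92.0 CPM in PC9 and 102, 99.5 and 97.5 CPM in PSPC9. The kinase BUB1 had 99.7, 92.0 and 90.3 CPM in PC9 and 98.4, 103 and 100.2 CPM in PSPC9, and BUB1B, the BubR1 subunit of the inhibitor of the anaphase-promoting complex, had 98.0, 89.7 and 89.1 and 98.9, 99.8 and 92.8 CPM. The kinase TTK, also known as MPS1, had 61.7, 56.7 and 60.0 CPM in PC9 and 64.8, 63.6 and 63.4 CPM in PSPC9. MAD2L1, which closes on CDC20 to delay anaphase, had 55.6, 52.6 and 54.7 CPM in PC9 and 53.9, 49.1 and 49.9 CPM in PSPC9. BUB3 and TTK were slightly higher in every PSPC9 library, and the groups overlapped for the other genes. The log2 fold changes were between -0.091 for MAD2L1 and 0.10 for TTK, with edgeR adjusted p from 0.0560 for TTK to 0.202 for BUB1B. Without PC9 replicate 1 BUB1 passed as higher, at 0.14 (edgeR adjusted p = 0.00783).

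Kinetochore and centromere genes moved in both directions. CENPF, a large kinetochore protein of G2 and mitosis (ENSG00000117724, chromosome 1, 214603185 to 214664574), had 229, 191 and 215 CPM in PC9 and 371, 328 and 344 CPM in PSPC9. CENPA, the histone H3 variant that marks centromeres, had 22.8, 24.4 and 26.0 CPM in PC9 and 36.5, 35.4 and 34.5 CPM in PSPC9. Both were higher in all persister libraries, with edgeR log2 fold changes of 0.72 (adjusted p = 2.84e-06) for CENPF and 0.54 (adjusted p = 9.39e-06) for CENPA. NDC80 and NUF2 form one arm of the complex that grips microtubules, and they differed. NUF2 (ENSG00000143228, chromosome 1, 163266576 to 163355764) had 33.1, 29.4 and 30.1 CPM in PC9 and 25.2, 24.6 and 22.4 CPM in PSPC9, without overlap, a fall of -0.36 on the log2 scale (standard error 0.0644, edgeR adjusted p = 4.93e-04). NDC80 had 72.4, 67.1 and 68.4 CPM in PC9 and 71.9, 73.7 and 71.2 CPM in PSPC9, with overlap, and did not pass (0.061 on the log2 scale, edgeR adjusted p = 0.23). CENPE, the kinetochore kinesin that aligns chromosomes, had 43.7, 36.0 and 39.4 CPM in PC9 and 42.0, 37.2 and 37.6 CPM in PSPC9. It overlapped too, and its log2 fold change of -0.029 (edgeR adjusted p = 0.739) changed sign when gene counts were summed from transcripts, to 0.017, and without PC9 replicate 1, to 0.045.

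Of 5 mitotic kinesins, 3 rose. KIF4A, which shortens midzone microtubules, had 76.0, 73.5 and 71.2 CPM in PC9 and 101, 103 and 94.8 CPM in PSPC9. KIF20A (MKLP2), which carries the passenger complex to the midzone, had 117, 113 and 109.6 and 133, 141 and 137 CPM, and KIF23 (MKLP1), a subunit of centralspindlin, had 136, 125 and 129.9 and 157, 161 and 156 CPM. All 3 were higher in every PSPC9 library, with edgeR log2 fold changes of 0.44 (adjusted p = 7.62e-06), 0.28 (adjusted p = 1.10e-04) and 0.28 (adjusted p = 1.13e-04). KIF2C (MCAK), which takes microtubules apart at centromeres, went the other way, with 122, 132 and 121 CPM in PC9 and 106, 107 and 106 CPM in PSPC9. Its libraries did not overlap, and the log2 fold change was -0.24 (edgeR adjusted p = 4.67e-04). KIF11 (Eg5), which pushes the spindle poles apart, had 89.2, 82.6 and 81.8 CPM in PC9 and 86.4, 86.0 and 83.1 CPM in PSPC9. KIF11 libraries overlapped, and its log2 fold change, 0.010 (edgeR adjusted p = 0.854), turned to -0.033 with upper-quartile scaling, to -0.043 with library size only and to -0.014 without PC9 replicate 3.

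Among 5 spindle and microtubule binding proteins, ASPM and PRC1 rose. ASPM, which focuses spindle poles, had 148, 117 and 133 CPM in PC9 and 200.05, 169 and 176 CPM in PSPC9, and PRC1, which bundles the microtubules of the midzone, had 152, 150.4 and 148 and 168, 171 and 169.5 CPM. Neither overlapped between the groups, with edgeR log2 fold changes of 0.45 (adjusted p = 5.26e-04) for ASPM and 0.17 (adjusted p = 8.90e-04) for PRC1. As for MKI67 and CENPF, PC9 replicate 2 was the lowest library for ASPM, and without it the log2 fold changes were 0.37 for ASPM and 0.65 for CENPF, both still past the limit. MKI67, ASPM and CENPF have the longest MANE Select transcripts of the 44 (12716, 10863 and 10290 bases). The part of transcript length in this pattern was not tested. NUSAP1, which stabilizes spindle microtubules, had 157, 146 and 145 CPM in PC9 and 156, 157 and 147 CPM in PSPC9. HMMR, a hyaluronan receptor that also binds the spindle, had 144, 126 and 131 and 138, 141 and 131 CPM, and DLGAP5 (HURP), which stabilizes the fibres at kinetochores, had 111, 105 and 109 and 105, 109 and 100.01 CPM. All 3 overlapped between the groups. Their edgeR log2 fold changes were 0.037, 0.030 and -0.048 (adjusted p = 0.479, 0.639 and 0.354), and both upper-quartile scaling and library size only turned NUSAP1 (-0.0058 and -0.016) and HMMR (-0.014 and -0.023) negative.

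The 2 cytokinesis genes differed. ANLN, the anillin that organizes the contractile ring, had 368, 337 and 344 CPM in PC9 and 470.5, 456 and 443 CPM in PSPC9, and ECT2, the exchange factor that activates RhoA there, had 199, 184 and 186 and 184, 176 and 176 CPM. ANLN was higher in every PSPC9 library (log2 fold change 0.39, edgeR adjusted p = 1.06e-05), while the groups just met for ECT2, which did not pass (log2 fold change -0.086, edgeR adjusted p = 0.0858). CDC20, which activates the anaphase-promoting complex, had 145, 157 and 147 CPM in PC9 and 180.3, 185 and 179 CPM in PSPC9 and rose by 0.28 (edgeR adjusted p = 9.90e-05), without overlap. UBE2C, the ubiquitin-conjugating enzyme of that complex, had 113, 118 and 115 CPM in PC9 and 109, 117 and 117 CPM in PSPC9, and PTTG1, which holds separase inactive until anaphase, had 137, 132 and 133 and 132, 139.8 and 131 CPM. Both overlapped almost wholly. The log2 fold changes were -0.0084 for UBE2C (edgeR adjusted p = 0.866), with 0.026 without PSPC9 replicate 1, and 0.0045 for PTTG1 (edgeR adjusted p = 0.927), with -0.039 under upper-quartile scaling, -0.049 with library size only and -0.023 without PSPC9 replicate 2.

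Partner genes shifted against each other inside each library, in ratios that do not depend on library scaling. The count ratio of CKS2 to CKS1B was 0.799, 0.768 and 0.802 in the PC9 libraries and 1.09, 1.12 and 1.17 in the PSPC9 libraries. That of CDC25B to CDC25C was 1.81, 1.94 and 1.86 in PC9 and 3.04, 3.15 and 3.25 in PSPC9. The PSPC9 libraries held the higher ratio in both pairs. The ratio of PLK1 to CDK1 was 0.936 ± 0.0737 (SD, n = 3) in PC9 and 1.59 ± 0.0898 (SD, n = 3) in PSPC9, and that of AURKA to AURKB was 0.924 ± 0.0348 (SD, n = 3) in PC9 and 1.27 ± 0.0354 (SD, n = 3) in PSPC9. NDC80 to NUF2, CCNB1 to CCNB2 and CDC20 to UBE2C were also higher in every PSPC9 library, with group means of 2.25 and 3.01, 1.63 and 1.98, and 1.30 and 1.59. TPX2 to AURKA, at 3.31 ± 0.0975 (SD, n = 3) in PC9 and 3.38 ± 0.0491 (SD, n = 3) in PSPC9, overlapped. These pairs were chosen with the genes' changes known, so the ratios carry no test, and as ratios of counts they compare groups and not the levels of the partners.

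**Figure D3:**
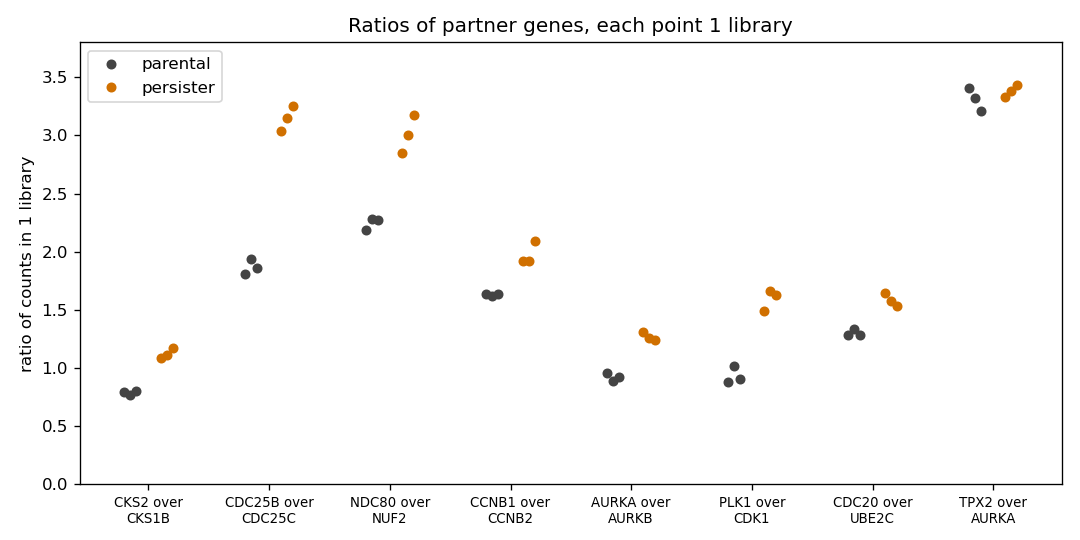
The ratio of the counts of 2 partner genes within each library (y axis, from 0), with 3 points for parental and 3 for persister libraries. In 7 of the 8 pairs all persister points lie above all parental points, most widely for CDC25B over CDC25C, and TPX2 over AURKA overlaps.

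Transcript counts asked whether the changes lay on the main isoforms. Of 333 annotated transcripts of the 44 genes 190 were tested, 16 were higher and 3 lower in PSPC9 (edgeR adjusted p under 0.01), or 10% of those tested, beside 7.80% of all 54499 transcripts. The transcript with the largest share was the same in both groups for all 44 genes, and it was the MANE Select transcript for 39. The 19 that changed lay in 16 of the 44 genes, fewer than the 27 genes that passed on gene counts. Among those 27, the transcript with the largest share did not pass for NUF2, AURKA and CDC25B, whose counts were split between isoforms. It also did not pass for some genes with nearly all counts on it. CCNA2-201 and CKS2-201 held 100% of the counts of their genes and had edgeR adjusted p of 0.0164 and 0.0105. ASPM-203 held 98.6% in PC9 and had an edgeR adjusted p of 0.0366. Of the 19 transcripts, 18 belonged to a gene that changed the same way. The exception was DLGAP5, whose gene count did not pass while DLGAP5-202 fell (log2 fold change -0.88, edgeR adjusted p = 6.06e-04). Its share of DLGAP5 counts was 29.01% ± 1.16 (SD, n = 3) in PC9 and 16.6% ± 0.997 (SD, n = 3) in PSPC9, while the MANE Select transcript DLGAP5-201 took 69.97% ± 1.28 and 82.0% ± 1.29. DLGAP5 had the smallest p of the 44 genes in edgeR's test of transcript usage, but at an adjusted p of 0.0169 it did not pass. Usage was called by edgeR in 0 of 40 genes tested, beside 1.88% of all 10545 genes. At an unadjusted p under 0.05 it was 7 of 40 (17.5%), beside 7.56% of all genes. The count of transcripts that changed was lower whichever library was left out. There were 19 with all 6, but 17, 10 and 4 without PC9 replicates 1, 2 and 3. Without PSPC9 replicates 1, 2 and 3 there were 9, 7 and 6. Each such fit also held fewer libraries, and the cause of the lower counts was not tested. Usage of 1 gene passed without PC9 replicate 2, PSPC9 replicate 1 or PSPC9 replicate 2.

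The rest of the mitotic machinery had a median nearer to that of all genes. Of 120 other mitotic genes, 39 (32.5%) rose and 24 (20%) fell in PSPC9, beside 28.7% and 28.1% of all genes, so that the share of rises was close to that of all genes. Their median log2 fold change was 0.071. The rises with the smallest p were those of the centromere protein CENPO (0.85), the kinetochore protein SKA1 (0.83) and ARHGAP11A (0.48), a RhoA regulator of cytokinesis. The falls with the smallest p were those of the centromere protein CENPH (-0.47), the phosphatase CDC14B (-0.49) and the cohesin subunit STAG2 (-0.45). Of 28 other kinetochore and centromere genes 14 (50%) rose and 8 (28.6%) fell, the latter near the share of all genes, and of 8 other checkpoint genes 4 rose and 1 fell.

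Among 20 regulators of G2/M transcription other than MYBL2 and FOXM1, 5 (25%) rose and 7 (35%) fell, near the 28.7% and 28.1% of all genes, with a median of -0.047. The MuvB and chromatin protein RBBP4 (-0.61), the p130 protein of DREAM, RBL2 (-0.57), and the repressor E2F8 (-0.29) were the falls with the smallest p. The repressor E2F7 (0.61), the E2F partner TFDP1 (0.22) and the MuvB subunit LIN54 (0.34) were the rises with the smallest p. RBL2 had 151, 143 and 145 CPM in PC9 and 102, 99.3 and 94.2 CPM in PSPC9 (edgeR adjusted p = 6.34e-07), so that all persister libraries were lower. In all 12 genes of this list changed, or 60%, beside 56.8% of all genes. That count was 7 without PSPC9 replicate 2 and 8 without PC9 replicate 3. Calls over all genes were also fewer in these 2 fits. They were 8307 of 14626 with all libraries, 7196 of 14847 without PSPC9 replicate 2 and 7138 of 14804 without PC9 replicate 3.

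Replication genes, many of which are expressed at the G1/S border and in S phase, held more falls than rises. Of 51, 9 rose and 20 fell, which is 17.6% and 39.2% beside the 28.7% and 28.1% of all genes, with a median of -0.14. The licensing factor CDT1 (-0.999), the origin protein ORC1 (-0.78) and the helicase subunit MCM7 (-0.52) fell with the smallest p. CDT1 had 89.1, 104 and 97.0 CPM in PC9 and 46.8, 47.8 and 50.6 CPM in PSPC9 (edgeR adjusted p = 1.02e-07), and the libraries of the 2 groups were far apart. The checkpoint mediator CLSPN (0.65), the helicase subunit GINS4 (0.50) and the ribonucleotide reductase subunit RRM2 (0.23) rose with the smallest p. The 9 rises were 5 with library size only and 5, 6 and 6 without PSPC9 replicate 2, PSPC9 replicate 1 and PC9 replicate 3. Rises over all genes were also fewer in these fits. They were 4193 of 14626 with TMM and all libraries, and 3604 of 14626 with library size only. Without the same libraries, in the same order, they were 3653 of 14847, 3758 of 14835 and 3587 of 14804. No test of the difference between the replication and the mitotic genes was made.

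Regulators of G1 moved both ways, 7 higher (38.9%) and 6 lower (33.3%) of 18 tested, beside 28.7% and 28.1% of all genes. The median was -0.059, and CCND2 had too few counts to be tested. CDKN1A (p21), which inhibits CDK2, had 7.76, 8.66 and 7.48 CPM in PC9 and 18.7, 20.5 and 20.4 CPM in PSPC9, the largest rise of the list (1.32, edgeR adjusted p = 7.12e-08). The CDK4 and CDK6 inhibitor CDKN2B (0.69) and the kinase CDK6 (0.87) rose as well. RBL2, cyclin D3 (CCND3, -0.43) and CDK2 (-0.32) fell with the smallest p. The inhibitor p27 (CDKN1B) fell slightly, by 0.15 on the log2 scale.

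**Figure D4:**
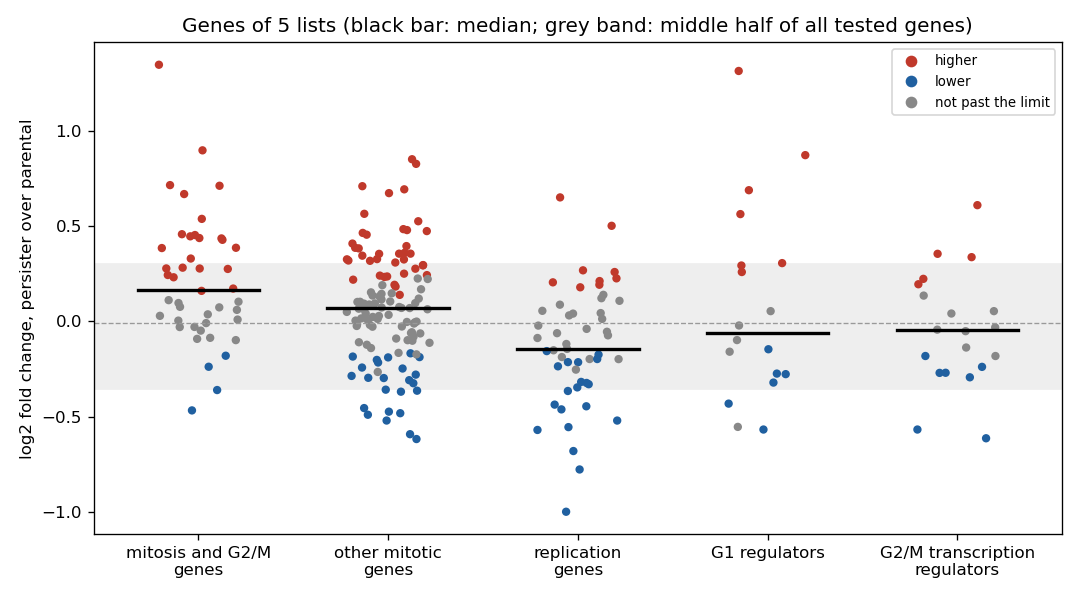
The log2 fold change (y axis, PSPC9 over PC9) of every tested gene of 5 lists, with a black bar for the median of each, red and blue for genes past the limit, and a grey band from -0.35 to 0.30 between the quartiles of all tested genes. The median is 0.17 for the mitosis and G2/M genes, 0.071 for other mitotic genes, -0.14 for replication genes, -0.059 for G1 regulators and -0.047 for the G2/M transcription regulators.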

How the data were processed

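RNA-seq of 6 libraries was analysed, 3 of PC9 and 3 of PSPC9, with groups and replicate numbers from the labels. The authors enriched poly-A RNA, pseudoaligned reads to GRCh38 transcripts with kallisto 0.46.1 (submitters' processing notes) and deposited estimated counts as whole numbers, per gene and per transcript, without normalization. Tests of gene counts used edgeR 4.0.16 in R 4.3.3 (filterByExpr, TMM, glmQLFit and glmQLFTest without a block, Benjamini-Hochberg adjustment, limit 0.01). The standard error was taken as the absolute log2 fold change over the root of the F statistic. Transcript counts went through the same test, and usage with diffSpliceDGE (Simes p per gene). TPM were computed here from the deposited transcript counts and annotated lengths. Coordinates are from GENCODE 44 on GRCh38. With 3 libraries against 3, an exact permutation test cannot go below p = 0.1, so p-values come from the model over all genes. Both the spread between libraries and counting error enter the precision.

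The members and lists were chosen with earlier results of these data known. All 44 members are named. Of each other list, the 3 genes with the smallest p in each direction are named, and others were chosen after their values were seen. The tests were tested on simulated data. Alternatives were other scalings, no filter, DESeq2 1.42.0, a replicate block, summed transcripts, leaving out each library, other limits and, added after seeing the data, limma 3.58.1 (voom). Figures were drawn with matplotlib 3.10.9. The Green lab's libraries were not used here. Some of the markers checked are not reported here.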

Additional observations from a re-analysis of the deposited data

How the results depend on the processing

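Between 26 and 28 of the 44 genes passed under every other scaling, filter, test or left-out library at the same limit. Of the 27 calls 26 held under all 14 alternatives at that limit, and TOP2A was the exception. The median of 0.17 was 0.12 with upper-quartile scaling and 0.11 with library size only, where the median of all genes was -0.049 and -0.059. Requiring a fold change above 2 as well left 1 of the 44 (1 higher, 0 lower), 1 of the G1 regulators (1 higher, 0 lower) and 0 changed, 0 higher and 0 lower in each of the other mitotic, regulator and replication lists. Replication genes that rose were 5 with library size only, and between 5 and 9 with a library left out. Rises over all genes were 3604 of 14626 with library size only. With a library left out they ran from 3542 of 14815 to 4253 of 14795. Changed regulators of G2/M transcription were between 7 and 12, and their falls between 3 and 7. Over all genes, calls with a library left out ran from 7054 of 14815 to 8407 of 14795. The ratio of the summed share was 1.25 with TMM-scaled library sizes.

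Signs turned only in genes that did not pass. CENPE was 0.017 with summed transcripts. KIF11, NUSAP1, HMMR and PTTG1 were -0.033, -0.0058, -0.014 and -0.039 with upper-quartile scaling and -0.043, -0.016, -0.023 and -0.049 with library size only. With a library left out AURKB ran from -0.060 to 0.0016, CENPE from -0.096 to 0.045, KIF11 from -0.014 to 0.050, HMMR from -0.014 to 0.087, UBE2C from -0.024 to 0.026 and PTTG1 from -0.023 to 0.023. The cause was not tested.

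Transcripts that changed were 39 at a limit of 0.05 (33 higher, 6 lower), between 4 and 17 with a library left out (3 to 15 higher, 1 to 2 lower), and 4 with a replicate block (4 higher, 0 lower). Usage passed in 1 gene at a limit of 0.05, in 1 with a mean count of at least 50, and in 0 to 1 with a library left out. Replicate numbers did not pair the samples: deviations of same-numbered libraries correlated at 0.124, 0.0236 and 0.0215 across genes. With the replicate block 27 of the 44 genes passed, 23 higher and 4 lower.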
